A study of Homo sapiens with 5 samples.

Results

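The transcription factors that direct the B lineage were followed in 5 human cell lines by RNA sequencing, with PAX5 and EBF1 at the centre. The set held 10 genes of the 57905 in the deposited expression table, chosen by name: PAX5, EBF1, TCF3, TCF4, FOXO1, IKZF1, IKZF3, SPIB, POU2AF1 and BACH2. All 10 had a row with a value in every line. Each line was represented by 1 library. MCC13, WaGa, MKL-2 and MKL-1 carried the label Merkel cell carcinoma, which is an aggressive neuroendocrine skin cancer (n = 4 lines), and REH was labelled pre-B-cell acute lymphoblastic leukemia (n = 1 line). All lines carried the genotype label WT, no treatment is named, and all were grown in RPMI with 10% serum. A single leukemia line stands for B-lineage cells here, and it is a malignant line and not a normal B cell. The question was which parts of the B-cell factor network were present beside PAX5 and EBF1 in the Merkel lines.

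In normal B-cell development the E proteins, among them TCF3 (E2A) and TCF4 (E2-2), act with FOXO1 to switch on EBF1. EBF1 and PAX5 then activate each other and the genes of the pre-B-cell receptor, and PAX5 shuts off genes of other lineages. The Ikaros family (IKZF1, IKZF3), the ETS factor SPIB, the octamer coactivator POU2AF1 and the repressor BACH2 act beside or after them. Merkel cells of the skin are specified by other factors such as ATOH1, SOX2 and ISL1.

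Levels are given as TPM, which is transcript abundance per length, with the same sum in each library. The number of genes at 1 TPM or above lay between 15949 in MCC13 and 16921 in MKL-2, and the read depth behind a TPM value was unknown. Markers of the labelled cell type were checked first. The 10 Merkel and neuroendocrine markers summed to 7704 TPM in WaGa, 4668 TPM in MKL-2, 4163 TPM in MKL-1 and 77.2 TPM in REH. In MCC13 they summed to 38.7 TPM, and ATOH1, INSM1, ISL1, KRT20 and NEUROD1 were listed at 0. The library labelled MCC13 thus went against its label on these markers. Results of the members against REH are given with and without it, and those of some other genes only with it. The 8 mesenchymal markers summed to 10009 TPM in MCC13, to between 15.4 and 23.0 TPM in the other 3 Merkel lines, and to 968 TPM in REH. The 6 B-lineage markers summed to between 0.785 and 29.3 TPM in the Merkel lines and to 2174 TPM in REH. The 8 leukocyte markers summed to between 31.7 and 109 TPM in the Merkel lines and to 2814 TPM in REH. PTPRC, the pan-leukocyte antigen CD45, was listed at 0 in MCC13, MKL-2 and WaGa, stood at 0.0598 TPM in MKL-1, and reached 118 TPM in REH. The summed markers of the Merkel lines and of REH were 8.90 to 18.4 against 5.71 TPM for 6 keratinocyte genes, 3.80 to 17.96 against 3.06 TPM for 5 melanocyte genes, 0 to 0.501 against 10.4 TPM for 5 T and NK cell genes, and 1.19 to 3.58 against 565 TPM for 5 myeloid genes. Mitochondrial transcripts took between 3.52% and 7.84% of TPM in the Merkel lines and 0.783% in REH.

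PAX5 RNA was abundant in WaGa, MKL-2 and MKL-1 and close to 0 in MCC13. PAX5 (ENSG00000196092), the paired-domain factor that commits progenitors to the B lineage, stood at 0.0228 TPM in MCC13, 38.4 TPM in WaGa, 75.03 TPM in MKL-2, 91.9 TPM in MKL-1 and 186 TPM in REH. EBF1 (ENSG00000164330), the pioneer factor that acts with it, stood at 0.0126 TPM in MCC13, 55.5 TPM in WaGa, 52.7 TPM in MKL-2, 64.6 TPM in MKL-1 and 119.7 TPM in REH. The 3 lines with PAX5 were the 3 lines with EBF1, and none of them reached the level of REH for either gene. The levels were 20.6%, 40.3% and 49.4% of that in REH for PAX5, and 46.4%, 44.1% and 53.9% for EBF1, in WaGa, MKL-2 and MKL-1 in that order. PAX5 RNA was 1.42 times EBF1 RNA in both MKL-1 and MKL-2, 0.693 times in WaGa and 1.56 times in REH, so WaGa was the 1 line of these 4 with less PAX5 than EBF1. With 1 library per line, the order of neighbouring lines cannot be tested. In bulk RNA, fewer cells that express a gene and less RNA per cell cannot be told apart.

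**Figure D1:**
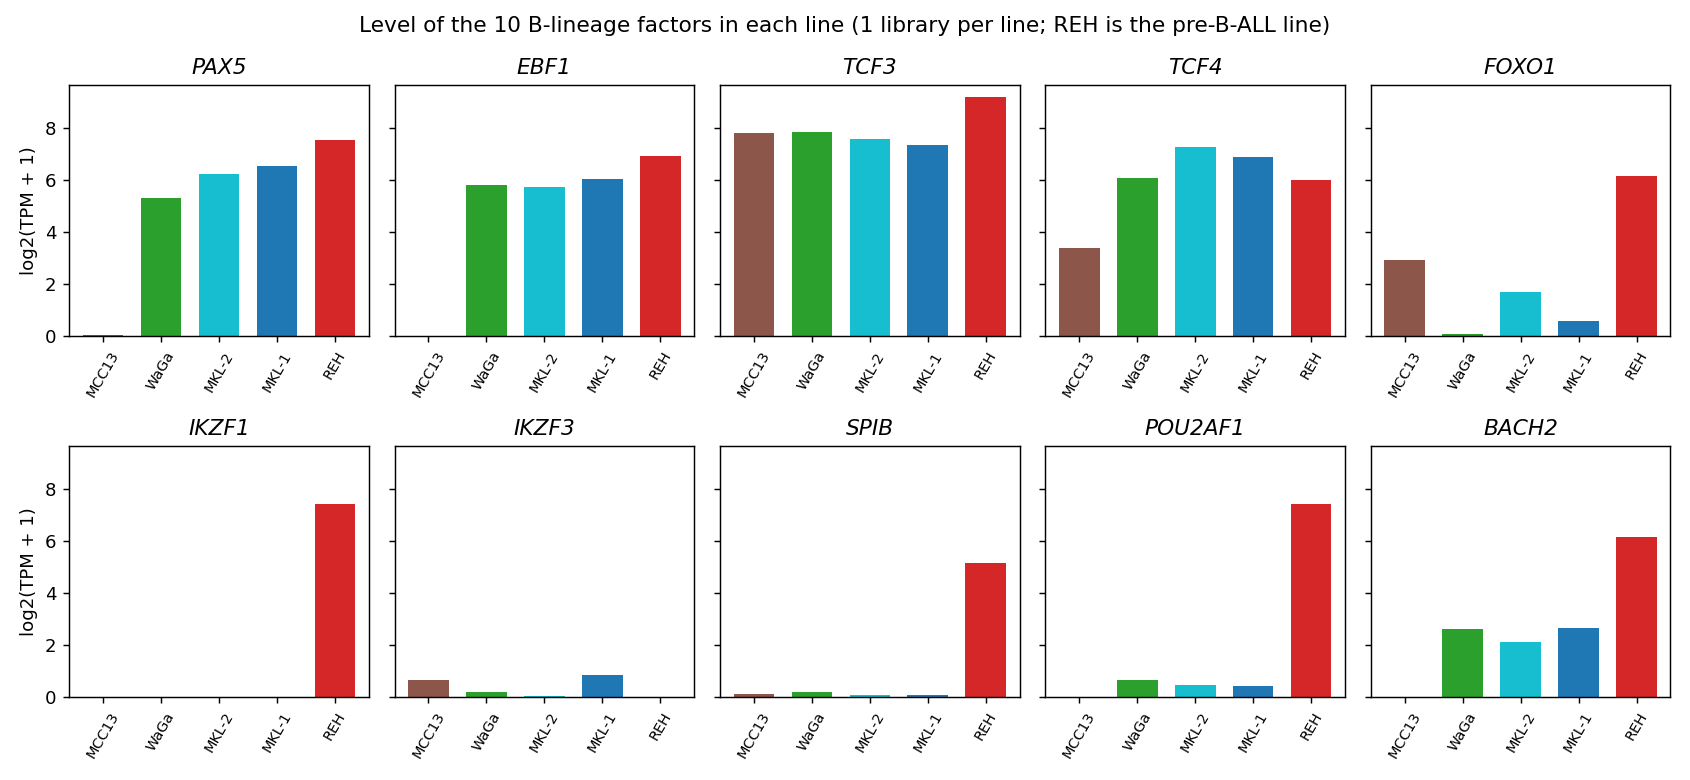
Level of each of the 10 factors as log2(TPM + 1) (vertical axis, 0 at the bottom) in each line (horizontal axis, 1 bar per line and library, no error bars because each line has 1 library). PAX5, EBF1 and TCF4 are high in WaGa, MKL-2 and MKL-1; IKZF1, SPIB and POU2AF1 stand out in REH alone; TCF3 is high in all 5 lines.

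The promoters of PAX5 and EBF1 are shown because the 2 genes were high and low in the same lines. Each sequence runs from 250 bases before to 50 bases after the RefSeq gene start (build GRCh38.p14, minus strand), at chr9:37034219-37034518 for PAX5 and chr5:159097907-159098206 for EBF1. Capitals mark a match to one of the motifs searched.
PAX5 promoter: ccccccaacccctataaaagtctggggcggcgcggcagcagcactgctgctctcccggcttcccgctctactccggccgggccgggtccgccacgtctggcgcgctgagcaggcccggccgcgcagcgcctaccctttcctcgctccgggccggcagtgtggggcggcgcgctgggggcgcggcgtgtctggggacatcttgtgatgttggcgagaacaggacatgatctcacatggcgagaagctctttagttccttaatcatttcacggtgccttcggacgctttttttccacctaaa
EBF1 promoter: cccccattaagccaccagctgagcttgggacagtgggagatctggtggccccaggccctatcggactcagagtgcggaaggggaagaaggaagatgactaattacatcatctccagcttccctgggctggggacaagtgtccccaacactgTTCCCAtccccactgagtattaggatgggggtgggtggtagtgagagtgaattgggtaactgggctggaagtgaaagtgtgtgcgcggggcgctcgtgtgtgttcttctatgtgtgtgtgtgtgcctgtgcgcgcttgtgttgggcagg
Both strands were searched for an EBF motif (TCCC and GGGA with 2 bases between them), an E-box bound by E proteins (CAGGTG), the Ikaros core (TGGGAA), the octamer (ATGCAAAT) and a forkhead motif (GTAAACA). The PAX5 window held none of these motifs. It lies upstream of first exon E1A, and the region at the other first exon of PAX5, E1B (described below), was not searched. The EBF1 window held 1 Ikaros core at position -99 from the start, a motif found in 24.0% of 35116 promoter windows of the same length. The EBF motif was found in 1.21%, the E-box in 20.6%, the octamer in 1.77% and the forkhead motif in 3.42% of these windows. Among the other members with a promoter in the table (8 of 10 in all), TCF4 held 1 forkhead match at -106 and IKZF1 held 1 Ikaros core at -32. These are matches of letters and not evidence of binding.

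Over all 4 Merkel lines, neither PAX5 nor EBF1 passed the test against REH. PAX5 differed by a log2(TPM + 1) difference of -3.02 ± 2.76 (SE; limma, adjusted p = 0.642) and EBF1 by -2.51 ± 2.66 (limma, adjusted p = 0.689). Without MCC13 the difference of PAX5 was -1.52 ± 0.60 (limma, adjusted p = 0.211) and that of EBF1 was -1.05 ± 0.23 (limma, adjusted p = 0.0811). Between MCC13 and the other 3 Merkel lines, PAX5 differed by -6.00 ± 0.63 (limma, adjusted p = 0.0256) and EBF1 by -5.85 ± 0.29 (limma, adjusted p = 0.00855). These were the 2 members called in that comparison, both lower, of 6 tested, where 2.47% of 20698 genes were called lower, 6.47% higher and 8.95% in either direction. Leaving out WaGa, MKL-2 or MKL-1 left no gene called there, with adjusted p between 0.117 and 0.138 for PAX5 and between 0.0893 and 0.133 for EBF1. Mesenchymal markers were higher and Merkel markers lower in MCC13, as given above, and their part in these differences was not tested. An exact permutation test could not go below p = 0.2 for 4 lines against 1, or 0.25 for 1 against 3.

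RNA of both E proteins was abundant in WaGa, MKL-2 and MKL-1, beside PAX5 and EBF1. TCF3 (E2A), which encodes E12 and E47 and is active in many tissues, stood at 226 TPM in MCC13, 227 TPM in WaGa, 192 TPM in MKL-2, 163 TPM in MKL-1 and 586 TPM in REH. All 4 Merkel lines lay below REH, with differences of -1.55 ± 0.30 (SE; limma, adjusted p = 0.0669) with MCC13 and -1.60 ± 0.28 (limma, adjusted p = 0.0536) without it, neither past the threshold. MCC13 lay within the range of the other 3 for TCF3 (difference 0.23 ± 0.27, limma, adjusted p = 0.631). TCF4 (E2-2), known for its part in plasmacytoid dendritic cells and neural development, stood at 9.41 TPM in MCC13, 67.3 TPM in WaGa, 152 TPM in MKL-2, 119 TPM in MKL-1 and 62.8 TPM in REH. WaGa, MKL-2 and MKL-1 were all above REH, at 107%, 242% and 189% of its level. The difference from REH was -0.09 ± 1.60 with MCC13 (limma, adjusted p = 0.983) and 0.76 ± 0.56 without it (limma, adjusted p = 0.440), so its sign depended on MCC13 and neither value passed. For MCC13 against the other 3, TCF4 differed by -3.37 ± 0.57 (limma, adjusted p = 0.0658). The mix of the 2 E proteins differed between lines, with TCF3 at 24.0 times TCF4 in MCC13, 3.37 times in WaGa, 1.26 times in MKL-2, 1.37 times in MKL-1 and 9.34 times in REH.

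TCF12, the remaining E protein and a relative of the members, stood at 35.1 TPM in MCC13, 93.6 TPM in WaGa, 140.1 TPM in MKL-2, 76.1 TPM in MKL-1 and 53.3 TPM in REH. E proteins are held in check by the ID proteins, which pair with them and cannot bind DNA. ID3 was high in MCC13 and REH, at 331 and 322 TPM, and stood at 40.9 TPM in WaGa, 54.8 TPM in MKL-2 and 101 TPM in MKL-1. ID4 showed another pattern, at 1.62 TPM in MCC13, 62.7 TPM in WaGa, 42.0 TPM in MKL-2 and 34.3 TPM in MKL-1, and was listed at 0 in REH. Of the 4 ID genes tested, none passed against REH over the 4 Merkel lines, and ID4 passed as higher without MCC13 (difference 5.52 ± 0.48, limma, adjusted p = 0.0162). Among all genes tested, 5.24% were called in either direction over the 4 lines, and 4.89% were called higher without MCC13. Here and below, a difference that involves lines listed at 0 depends on the pseudocount and gives no fold. ID4 was lower in MCC13 than in the other 3 (-4.13 ± 0.46, limma, adjusted p = 0.0295). It was the 1 of 4 ID genes called in that comparison, where 2.47% of all genes were called lower. Summed E protein RNA over summed ID RNA was 0.677 in MCC13, 2.47 in WaGa, 4.19 in MKL-2, 1.82 in MKL-1 and 2.10 in REH. MCC13 was the 1 line with more ID than E protein RNA, and the ratios of WaGa, MKL-2 and MKL-1 lay on both sides of that of REH.

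FOXO1 (ENSG00000150907), the forkhead factor that acts with E proteins to switch on EBF1 and the RAG genes, was low in the Merkel lines. It stood at 6.72 TPM in MCC13, 0.0637 TPM in WaGa, 2.28 TPM in MKL-2, 0.505 TPM in MKL-1 and 71.1 TPM in REH. WaGa, MKL-2 and MKL-1 thus had less FOXO1 RNA than MCC13, which had almost no EBF1, while REH had the most RNA of both genes. Against REH the difference was -4.84 ± 1.26 (SE; limma, adjusted p = 0.132) over 4 lines, and it passed at -5.37 ± 0.82 without MCC13 (limma, adjusted p = 0.0426). The difference of MCC13 from the other 3 did not pass (2.15 ± 0.78, limma, adjusted p = 0.212). Other FOXO genes were present: FOXO3 stood at 23.0 TPM in MCC13, 63.01 TPM in WaGa, 47.9 TPM in MKL-2, 48.1 TPM in MKL-1 and 27.8 TPM in REH. FOXO6 stood at 1.08 TPM in MCC13, 28.7 TPM in WaGa, 112 TPM in MKL-2, 44.6 TPM in MKL-1 and 6.23 TPM in REH, and neither gene passed in any comparison.

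IKZF1, SPIB and POU2AF1, which are largely restricted to blood cells, were the 3 members called lower in the 4 Merkel lines than in REH, of 9 tested. Across all 22250 genes tested, 4.15% were called lower, 1.09% higher and 5.24% in either direction. IKZF1 (Ikaros), a zinc finger factor needed for lymphoid development, stood at 0.0102 TPM in MCC13, was listed at 0 in WaGa, MKL-2 and MKL-1, and stood at 169 TPM in REH. SPIB, an ETS factor of B cells and plasmacytoid dendritic cells, stood at 0.0745 TPM in MCC13, 0.131 TPM in WaGa, 0.0502 TPM in MKL-2, 0.0542 TPM in MKL-1 and 34.8 TPM in REH. POU2AF1 (OCA-B), the coactivator of the octamer factors, was listed at 0 in MCC13 and stood at 0.558 TPM in WaGa, 0.379 TPM in MKL-2, 0.342 TPM in MKL-1 and 170.4 TPM in REH. No Merkel line reached 1 TPM of any of the 3 genes. They thus entered the test through REH alone, and a call could only be lower. The differences were -7.40 ± 0.40 for IKZF1 (SE; limma, adjusted p = 0.00572), -5.05 ± 0.31 for SPIB (limma, adjusted p = 0.00572) and -7.04 ± 0.52 for POU2AF1 (limma, adjusted p = 0.00653). All 3 passed without MCC13 too (limma, adjusted p = 0.00885 each). Leaving out WaGa, MKL-2 or MKL-1 left no gene of the table called and gave these 3 an adjusted p of 0.0758, 0.0649 and 0.0802. With a filter at a mean of 5 TPM the adjusted p of SPIB was 0.0567.

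BACH2, a repressor that delays plasma cell differentiation, was present at a low level in the same 3 lines as PAX5. It stood at 0.00699 TPM in MCC13, 5.05 TPM in WaGa, 3.28 TPM in MKL-2, 5.34 TPM in MKL-1 and 70.8 TPM in REH. The 3 lines with PAX5 held between 4.63% and 7.55% of the BACH2 level of REH. The difference from REH was -4.32 ± 1.24 over 4 lines (SE; limma, adjusted p = 0.161) and passed at -3.71 ± 0.44 without MCC13 (limma, adjusted p = 0.0272). MCC13 differed from the other 3 by -2.44 ± 0.41 (limma, adjusted p = 0.0658), a call made only with a pseudocount of 0.1 (adjusted p = 0.0355) among the settings tried. IKZF3 (Aiolos), a relative of Ikaros in later B cells, was under 1 TPM everywhere and was not tested. It stood at 0.559 TPM in MCC13, 0.138 TPM in WaGa, 0.0253 TPM in MKL-2 and 0.815 TPM in MKL-1, and was listed at 0 in REH.

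Without MCC13, 5 of 9 tested members were lower than in REH (IKZF1, SPIB, POU2AF1, BACH2 and FOXO1) and none was higher, where 8.42% of 21247 genes were called lower, 4.89% higher and 13.3% in either direction. The median difference of the tested members was -4.32 with MCC13 and -3.71 without it, against 0.18 and 0.20 over all genes tested. These medians depend in part on the filter. IKZF1, SPIB and POU2AF1 entered through REH alone, and IKZF3, listed at 0 in REH, was left out. For WaGa, MKL-2 and MKL-1, each against the other 3 Merkel lines, limma called none of 20698 genes (0% in either direction). At an unadjusted p under 0.05 there were 467, 638 and 296 genes in those 3 comparisons, and no member among them.

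**Figure D2:**
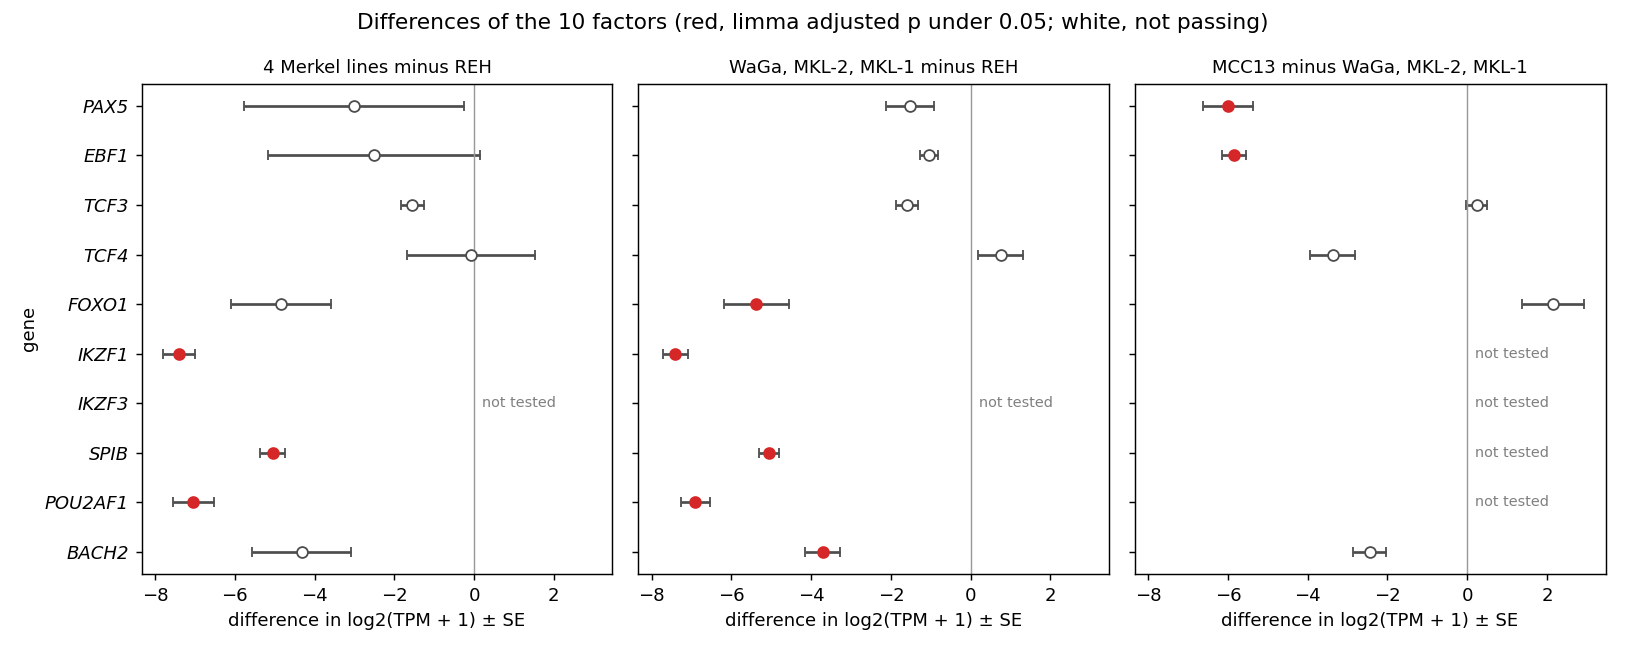
Difference in log2(TPM + 1) of each factor (horizontal axis, points, with bars of ± 1 SE from limma) for the 4 Merkel lines minus REH, for WaGa, MKL-2 and MKL-1 minus REH, and for MCC13 minus the other 3. Red points passed the adjusted threshold of 0.05: 3 members lower in the left panel, 5 lower in the middle panel, and PAX5 and EBF1 in the right panel.

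The relatives of the absent members were examined from the same families. SPI1 (PU.1), an ETS relative of SPIB that acts in myeloid and early lymphoid cells, stood at 0.0986 TPM in MCC13 and 0.0294 TPM in MKL-1, was listed at 0 in MKL-2 and WaGa, and reached 180.4 TPM in REH (difference -7.46 ± 0.41, limma, adjusted p = 0.00572). It was the 1 of 15 tested relatives called against REH over 4 lines, where 5.24% of all genes tested were called. IKZF2 (Helios) stood at 3.06 TPM in MCC13, 0.0179 TPM in WaGa, 0.0756 TPM in MKL-2, 0.00890 TPM in MKL-1 and 20.3 TPM in REH, and joined SPI1 as lower without MCC13 (-4.37 ± 0.21, limma, adjusted p = 0.00885). A share of 2 in 15 tested relatives is near the 13.3% of all genes called in either direction without MCC13. Of all genes, 8.42% were called lower there. SPI1 and IKZF2 reached 1 TPM in REH alone among those lines, so a call could only be lower. The Ikaros relatives IKZF4 and IKZF5 were present in every line. IKZF4 stood at 1.28 TPM in MCC13, between 7.08 and 9.32 TPM in the other Merkel lines and at 5.04 TPM in REH, and IKZF5 stood between 10.2 and 14.3 TPM in the Merkel lines and at 11.1 TPM in REH. The octamer factors that POU2AF1 serves were present too, with POU2F1 at 3.90 to 11.8 TPM in the Merkel lines and 16.7 TPM in REH. POU2F2 (OCT2) stood at 7.61 TPM in MCC13, 5.52 TPM in WaGa, 1.78 TPM in MKL-2, 2.09 TPM in MKL-1 and 4.51 TPM in REH.

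EBF3 reached 12.2 TPM in WaGa and 4.83 TPM in MKL-2, was listed at 0 in MCC13 and MKL-1, and stood at 0.363 TPM in REH. EBF4 stood at 6.46 TPM in MCC13, 8.37 TPM in WaGa, 1.15 TPM in MKL-2, 0.397 TPM in MKL-1 and 21.7 TPM in REH, and EBF2 stayed at or under 0.0437 TPM throughout. EBF1 was thus the most abundant EBF gene in WaGa, MKL-2, MKL-1 and REH, and EBF4 in MCC13. BACH1, the widely active relative of BACH2, stood between 21.9 and 38.6 TPM in the Merkel lines and at 31.4 TPM in REH. PAX8 reached 3.30 TPM in MKL-2 and 3.18 TPM in MKL-1, was near 0 in MCC13 (0.0156 TPM) and REH (0.00136 TPM), and was listed at 0 in WaGa. FOXO4 stood between 1.83 and 12.7 TPM in the Merkel lines and at 27.8 TPM in REH, and SPIC was listed at 0 in all 4 Merkel lines and stood at 0.0560 TPM in REH. PAX2 and IKZF2 were the relatives called in MCC13 against the other 3, both higher, of 14 tested, where 6.47% of all genes were called higher. PAX2 stood at 44.0 TPM in MCC13 and at 0.0991, 1.54 and 0.104 TPM in WaGa, MKL-2 and MKL-1 (4.95 ± 0.69, limma, adjusted p = 0.0460), and the call was lost with a pseudocount of 0.1, without the filter and without the variance trend (adjusted p = 0.117, 0.0703 and 0.0514).

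Of 20 other regulators of the B lineage, 3 were lower in the 4 Merkel lines than in REH and none was higher, with a median difference of -1.54. They were ERG, ELF1 and the class II transactivator gene CIITA. Among all genes tested there, 4.15% were called lower and 1.09% higher. ERG and CIITA reached 1 TPM in REH alone, so a call of either could only be lower. ERG, an ETS factor of blood progenitors and endothelium, stood at 0.0760 TPM in MCC13, was listed at 0 in MKL-1, stood at 0.0483 TPM in WaGa and 0.0118 TPM in MKL-2, and reached 73.8 TPM in REH (-6.18 ± 0.35, limma, adjusted p = 0.00572). Without MCC13, 7 of the 20 regulators were lower and 1 was higher, where 8.42% of all genes were called lower and 4.89% higher. The median difference of the 20 was -2.19 in that comparison. RUNX1, needed for definitive blood formation, and LEF1, a factor of early lymphoid cells, were among the 7. LEF1 stood at 19.7 TPM in WaGa, 12.4 TPM in MKL-2 and 13.8 TPM in MKL-1 against 439 TPM in REH (-4.78 ± 0.36, limma, adjusted p = 0.0135). The higher gene was GFI1, a repressor that acts in blood cells and inner ear hair cells, at 248 TPM in WaGa, 144 TPM in MKL-2 and 184 TPM in MKL-1 against 11.8 TPM in REH (3.89 ± 0.39, limma, adjusted p = 0.0205). In MCC13 GFI1 stood at 0.634 TPM and was lower than in the other 3 (-6.85 ± 0.40, limma, adjusted p = 0.00946). SOX4, which acts early in B-cell development in the mouse, stood at 20.3 TPM in MCC13, 133 TPM in WaGa, 147 TPM in MKL-2, 129 TPM in MKL-1 and 157 TPM in REH, and was lower in MCC13 than in the other 3 (-2.69 ± 0.20, limma, adjusted p = 0.0132). RUNX3, RUNX1 and IRF4 were higher in MCC13, so 3 of 18 tested regulators were higher and 2 lower there. Of all genes, 6.47% were called higher and 2.47% lower in that comparison. RUNX3 stood at 62.7 TPM in MCC13 and at 1.17, 0.0411 and 0.498 TPM in WaGa, MKL-2 and MKL-1 (5.41 ± 0.57, limma, adjusted p = 0.0256). With a pseudocount of 0.1 the calls of RUNX1, RUNX3 and IRF4 were lost (adjusted p = 0.138, 0.1003 and 0.0574), and that of RUNX1 was also lost without the filter and without the variance trend (adjusted p = 0.0690 and 0.0509).

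**Figure D3:**
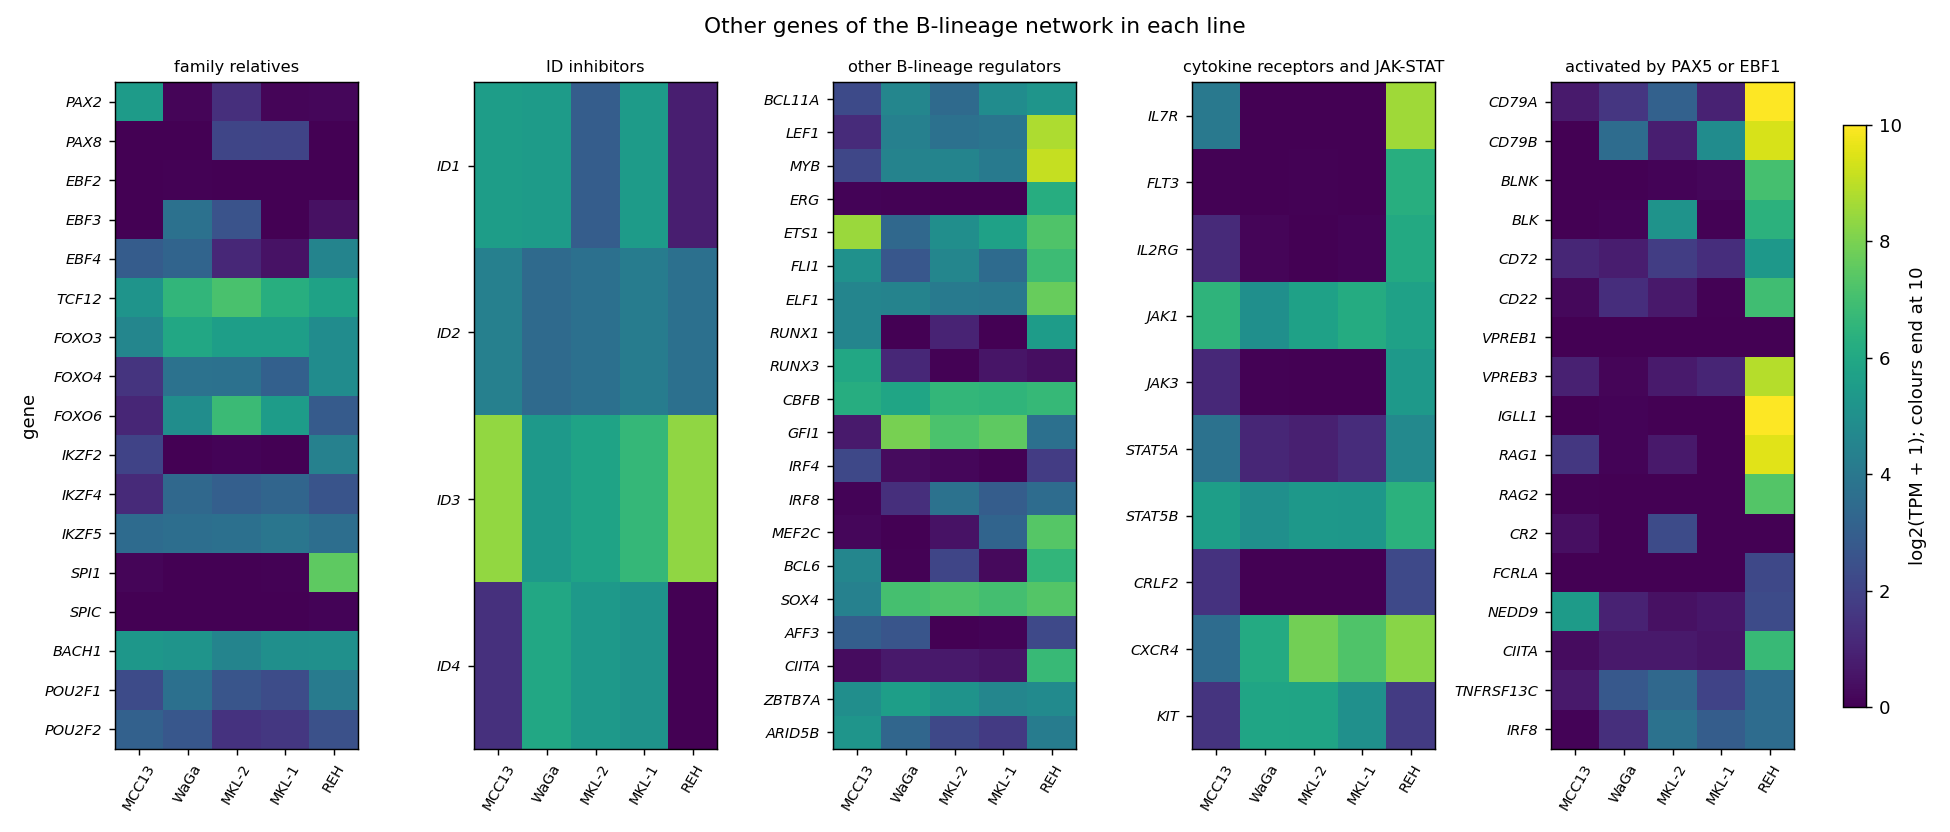
Level of the other genes of the network as log2(TPM + 1) (colour, with the scale ending at 10) in each line (columns) for the family relatives, the ID inhibitors, the other B-lineage regulators, the cytokine receptors with their kinases and STATs, and the genes activated by PAX5 or EBF1 (rows). REH is bright and the Merkel lines are dark for most activated genes, while GFI1 and ID4 are bright in WaGa, MKL-2 and MKL-1.

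Genes that PAX5 or EBF1 are known to activate in B cells were mostly near 0 in the lines that held both factors. Of 17 tested, 11 were lower in the 4 Merkel lines than in REH and none was higher, with a median difference of -6.35. Without MCC13, 11 were lower as well, with a median of -6.23. Among all genes tested, 4.15% were called lower over the 4 lines and 8.42% without MCC13. Several of those called, IGLL1 among them, reached 1 TPM in REH alone, so a call could only be lower. IGLL1, a surrogate light chain gene, was listed at 0 in MCC13, MKL-1 and MKL-2, stood at 0.0601 TPM in WaGa and reached 1147 TPM in REH (-10.14 ± 0.50, limma, adjusted p = 0.00572). Some genes of the list had RNA in 1 or more of the lines with PAX5. CD79B, a signalling chain of the B-cell receptor, was listed at 0 in MCC13 and stood at 10.5 TPM in WaGa, 0.799 TPM in MKL-2, 28.0 TPM in MKL-1 and 666 TPM in REH. CD79A, its partner chain, stood at 0.632 TPM in MCC13, 2.02 TPM in WaGa, 7.67 TPM in MKL-2, 0.932 TPM in MKL-1 and 1091 TPM in REH, and was lower in the 4 Merkel lines than in REH (-8.50 ± 1.09, limma, adjusted p = 0.0245). BLK, a B-cell tyrosine kinase, stood at 34.3 TPM in MKL-2, at no more than 0.0576 TPM in the other Merkel lines and at 85.7 TPM in REH. TNFRSF13C, the BAFF receptor, stood at 0.619 TPM in MCC13, 5.72 TPM in WaGa, 9.33 TPM in MKL-2, 3.09 TPM in MKL-1 and 10.3 TPM in REH. IRF8, an interferon regulatory factor of B and myeloid cells, stood at 0.0631 TPM in MCC13, 1.53 TPM in WaGa, 12.6 TPM in MKL-2, 6.76 TPM in MKL-1 and 10.5 TPM in REH. CD79B, BLK, TNFRSF13C and IRF8 did not pass in any comparison and were named after their values were seen. In MCC13 against the other 3, NEDD9, an adhesion scaffold gene, was the 1 of 11 tested that passed (4.83 ± 0.39, limma, adjusted p = 0.0155), and it was higher in MCC13. A share of 1 in 11 is near the 8.95% called among all genes there.

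Genes known in the mouse to be repressed by PAX5 gave 2 lower of 5 tested over the 4 Merkel lines, CSF1R and FLT3, and none higher. Of all genes tested there, 4.15% were called lower. Both genes reached 1 TPM in REH alone, so a call could only be lower. Without MCC13, 3 of the 5 were lower, where 8.42% of all genes were called lower. CSF1R, a receptor of myeloid cells, stood at 0.134 TPM in MCC13, 0.0111 TPM in WaGa, 0.101 TPM in MKL-2, 0.118 TPM in MKL-1 and 17.5 TPM in REH (-4.09 ± 0.28, limma, adjusted p = 0.00575). REH, the line with the most PAX5, was thus the line with the most CSF1R and FLT3. EMB, the gene of the membrane glycoprotein embigin, was listed at 0 in WaGa, MKL-2 and MKL-1 but reached 26.5 TPM in MCC13 and 42.5 TPM in REH. It was higher in MCC13 than in the other 3 (4.78 ± 0.21, limma, adjusted p = 0.00855) and lower in those 3 than in REH. EMB was the 1 of 3 tested that was called in MCC13, where 6.47% of all genes were called higher. With the other 3 lines listed at 0, a call of EMB there could only be higher. Of 3 tested plasma cell factors none passed over the 4 lines and IRF4 was lower without MCC13. Among all genes tested, 5.24% were called in either direction over the 4 lines, and 8.42% were called lower without MCC13. IRF4 stood at 3.49 TPM in MCC13, 0.210 TPM in WaGa, 0.117 TPM in MKL-2, 0.0314 TPM in MKL-1 and 2.41 TPM in REH. Without MCC13 it thus reached 1 TPM in REH alone, and a call could only be lower. XBP1 stood between 39.2 and 91.8 TPM in the Merkel lines and at 306 TPM in REH, and PRDM1 stayed at or under 0.151 TPM in all 5 lines.

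Several receptors, kinases and STATs that serve early B-cell growth were low in WaGa, MKL-2 and MKL-1, but JAK1, STAT5B, CXCR4 and KIT were not. JAK1 stood between 30.6 and 69.4 TPM in these lines and at 52.1 TPM in REH. STAT5B stood between 30.5 and 39.8 TPM in them and at 83.0 TPM in REH, and neither gene passed in any comparison. Of the 10 genes tested in this list, 3 were lower in the 4 Merkel lines (FLT3, IL2RG and JAK3), where 4.15% of all genes were called lower. Without MCC13, 6 were lower and KIT higher, where 8.42% of all genes were called lower and 4.89% higher. IL7R, the interleukin-7 receptor, stood at 15.4 TPM in MCC13, was listed at 0 in MKL-1 and MKL-2, stood at 0.0121 TPM in WaGa and reached 385 TPM in REH. The difference was -8.59 ± 0.34 without MCC13 (limma, adjusted p = 0.00885). KIT, the stem cell factor receptor, stood at 1.84 TPM in MCC13, 58.6 TPM in WaGa, 56.1 TPM in MKL-2, 31.5 TPM in MKL-1 and 2.32 TPM in REH (3.85 ± 0.50 for WaGa, MKL-2 and MKL-1 against REH, limma, adjusted p = 0.0326). CXCR4, a chemokine receptor of B-cell precursors that did not pass, stood at 10.7 TPM in MCC13, 68.1 TPM in WaGa, 236 TPM in MKL-2, 150.2 TPM in MKL-1 and 296 TPM in REH. In MCC13 against the other 3, 5 of 9 tested were higher (IL7R, IL2RG, JAK3, STAT5A and CRLF2). Of all genes tested there, 6.47% were called higher. All of them but STAT5A reached 1 TPM in MCC13 alone of the Merkel lines, so a call could only be higher. IL2RG, JAK3 and CRLF2 stood close to that filter in MCC13, at 1.27, 1.23 and 1.73 TPM. The calls of STAT5A and CRLF2 were lost in at least 1 other setting that kept all lines. Among the 5 higher genes, IL7R had the largest difference (4.03 ± 0.18, limma, adjusted p = 0.00855). KIT was lower (-4.08 ± 0.50, limma, adjusted p = 0.0357), a call lost with quantile normalization (adjusted p = 0.0521). IL2RG and JAK3 lost their calls against REH with a pseudocount of 0.1 (adjusted p = 0.0920 and 0.113) and with a filter at a mean of 5 TPM (adjusted p = 0.0540 and 0.0706).

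The pattern of PAX5 over the 5 lines was next compared with that of every other gene at 5 TPM or more in at least 1 line. Likeness was the root mean square (RMS) difference of log2(TPM + 1), each gene centred on its mean over the 5 lines. EBF1 ranked 1 of 16287 genes by likeness to PAX5, with an RMS difference of 0.43, and PAX5 ranked 1 by likeness to EBF1. BACH2 ranked 113 (1.55) and TCF4 ranked 122 (1.57), while SPIB ranked 4962, TCF3 5717, POU2AF1 8535, IKZF1 11589 and FOXO1 13600. The genes nearest to PAX5 after EBF1 were MYO15B, TSPAN13, SSBP2, MFNG, RASAL1, ARHGAP9 and PTPN6. MYO15B, a myosin-like gene with an RMS difference of 0.50, stood at 0.570 TPM in MCC13, 22.9 TPM in WaGa, 71.7 TPM in MKL-2, 58.6 TPM in MKL-1 and 128 TPM in REH. TSPAN13, a tetraspanin, stood at 2.95 TPM in MCC13, 85.3 TPM in WaGa, 65.5 TPM in MKL-2, 97.8 TPM in MKL-1 and 171 TPM in REH. PTPN6 (SHP-1), a phosphatase of blood and epithelial cells that was also in the leukocyte marker list, stood at 0.245 TPM in MCC13, 11.9 TPM in WaGa, 33.1 TPM in MKL-2, 11.6 TPM in MKL-1 and 61.1 TPM in REH. TSPAN13, MFNG, MYO15B and RASAL1 were also the nearest to EBF1 after PAX5. With 5 points, of which MCC13 is far below the rest, likeness is a description of these libraries. The ranks depended on REH and on the pseudocount: over the 4 Merkel lines alone EBF1 ranked 32, TCF4 403 and BACH2 998 of 15287 genes, and none of the 8 nearest was shared. With a pseudocount of 0.1 EBF1 ranked 1, BACH2 35 and TCF4 294, and 2 of the 8 nearest were shared.

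**Figure D4:**
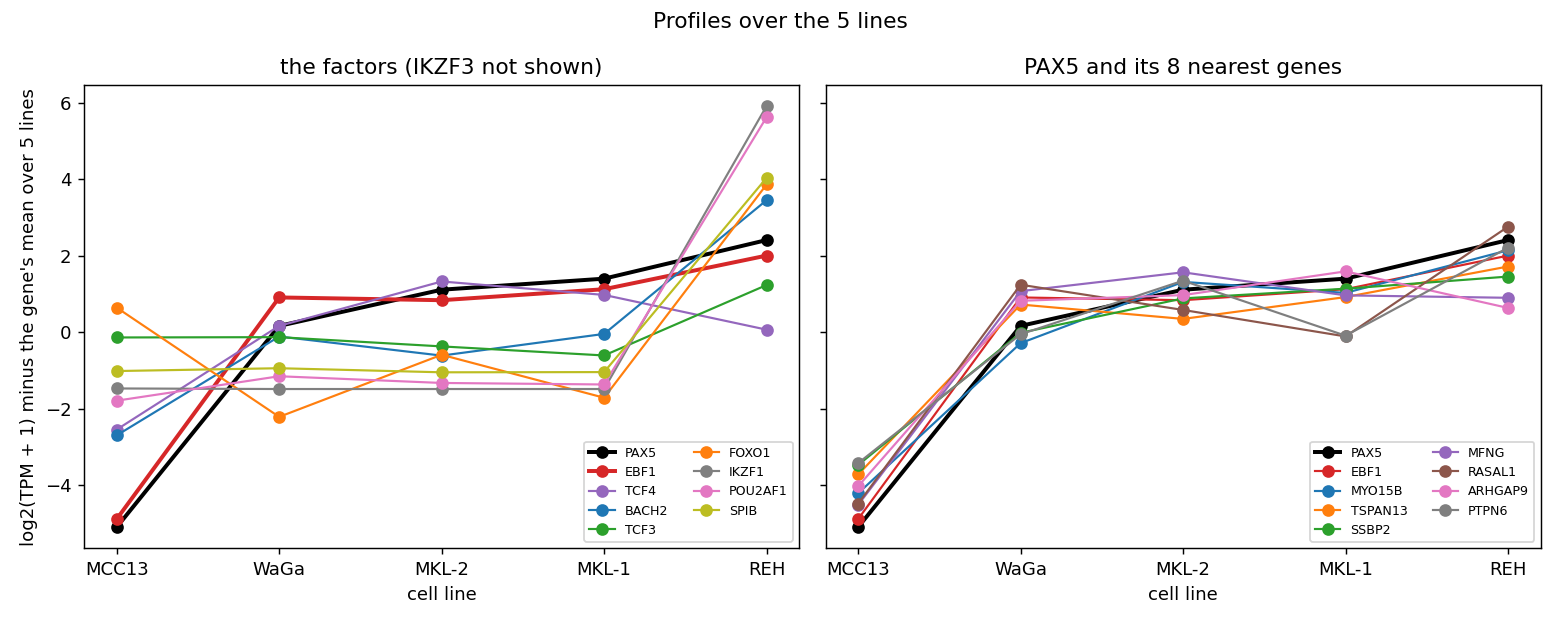
Profile of each gene over the 5 lines as log2(TPM + 1) minus the gene's own mean (vertical axis), for 9 of the factors (left) and for PAX5 with its 8 nearest genes (right), 1 point per line and library. PAX5 and EBF1 run together, BACH2 and TCF4 share their low value in MCC13, and IKZF1, POU2AF1 and SPIB are high in REH alone.

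PAX5 could also be read exon by exon, from scaled read numbers for 12 exons. The values corresponded to 13500 reads in WaGa, 26222 in MKL-2, 45715 in MKL-1 and 73721 in REH. In MCC13 1 of the 12 exons was above 0, the last exon E10, with a scaled value of 8.08, so MCC13 gave no exon profile. All other exons had reads in the remaining 4 lines. E10 (hg19 chr9:36833272-36840633, minus strand), 7362 bases long, held 70.1% of the reads in WaGa, 71.3% in MKL-2, 72.5% in MKL-1 and 62.0% in REH.

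PAX5 is transcribed from a pair of promoters with alternative first exons, 1A and 1B. Exon E1B (hg19 chr9:37026530-37027676) held 7.21% of PAX5 reads in WaGa (exact 95% binomial interval 6.78 to 7.66), 7.02% in MKL-2 (6.71 to 7.34), 5.55% in MKL-1 (5.34 to 5.77) and 17.5% in REH (17.2 to 17.8). REH lay above all 3 Merkel lines, outside their intervals. Exon E1A (hg19 chr9:37033983-37034028) held 30 reads in WaGa, 43 in MKL-2, 135 in MKL-1 and 122 in REH. Of the reads on either first exon, E1A took 2.99% in WaGa (2.02 to 4.24), 2.28% in MKL-2 (1.66 to 3.06), 5.05% in MKL-1 (4.25 to 5.95) and 0.936% in REH (0.778 to 1.12). The share of E1A was higher in each of the 3 Merkel lines than in REH, with intervals that did not overlap that of REH. E1A is much shorter than E1B. Its 46 counted bases begin at the start codon, while the 1147 bases of E1B matched no annotated exon by length. The counted stretches may thus cover unlike parts of the first exons. Per base, the reads of E1A over those of E1B were 0.768 in WaGa, 0.582 in MKL-2, 1.33 in MKL-1 and 0.236 in REH. Intervals cover counting error only, so a lack of overlap is no test between lines. With 1 library per line, a difference between lines and one between libraries cannot be told apart.

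The sequences of E1A, of the short exon E6/7 and of E5 are shown because E1A took a larger share of first-exon reads in the Merkel lines than in REH, E6/7 took a larger share beside E7, and E5 had the highest read density in REH. They come from GENCODE 29 (build GRCh38, minus strand), matched by exon length, at chr9:37033986-37034031 for E1A, chr9:37002648-37002776 for E5 and chr9:36930888-36930944 for E6/7. The capitals in E1A mark the start codon.
E1A: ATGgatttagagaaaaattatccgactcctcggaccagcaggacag
E5: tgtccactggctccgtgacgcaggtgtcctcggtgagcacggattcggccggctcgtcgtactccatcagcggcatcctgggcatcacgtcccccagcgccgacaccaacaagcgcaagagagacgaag
E6/7: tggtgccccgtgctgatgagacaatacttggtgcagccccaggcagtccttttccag
E6/7 is 57 bases long and lies between E6 and E7. It is part of 2 of the 16 annotated PAX5 transcripts, 1 of them annotated as a target of nonsense-mediated decay. It held 25 reads in WaGa, 16 in MKL-2, 54 in MKL-1 and 5 in REH. Of the reads on E6/7 and E7, E6/7 took 6.11% in WaGa (3.99 to 8.89), 2.54% in MKL-2 (1.46 to 4.09), 4.48% in MKL-1 (3.38 to 5.81) and 0.403% in REH (0.131 to 0.937). The share was higher in all 3 Merkel lines than in REH, whose interval overlapped none of theirs, and it rested on few reads in every line.

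Exons also differed in read density. Per base, the reads of E5 over those of E3 were 1.37 in WaGa, 1.25 in MKL-2, 1.22 in MKL-1 and 3.07 in REH. E4 lies between E3 and E5, and E5 over its neighbour E4 was 0.639, 0.573, 0.586 and 1.18 in the same order. E6 held 0.871 times the reads of E7 per base in WaGa, 1.01 times in MKL-2, 0.925 times in MKL-1 and 1.89 times in REH. Of the reads on E6 and E7, E6 took 54.1% in WaGa (50.7 to 57.5), 57.7% in MKL-2 (55.2 to 60.3), 55.6% in MKL-1 (53.7 to 57.5) and 71.9% in REH (70.5 to 73.2). E2 held 0.870 times the reads of E3 per base in WaGa, 0.827 times in MKL-2, 0.7999 times in MKL-1 and 1.52 times in REH. Of all PAX5 reads, E3 itself held 3.61% in WaGa, 3.93% in MKL-2, 3.87% in MKL-1 and 2.24% in REH, so ratios to E3 are raised in REH. As shares of all PAX5 reads, REH was above the 3 Merkel lines at E1B, E5 and E6, and for E2 its 2.85% lay close to their 2.59% to 2.72%. These shares depend on E10, which held less of the reads in REH. Without E10, E6 held 11.3% in REH and 11.1% to 11.5% in the 3 Merkel lines. E5 held 11.8% in REH against 10.8% to 11.2%, and E2 held 7.50% in REH against 8.83% to 9.49%. No test across lines was made on the exon shares, which are given as a description of these libraries.

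**Figure D5:**
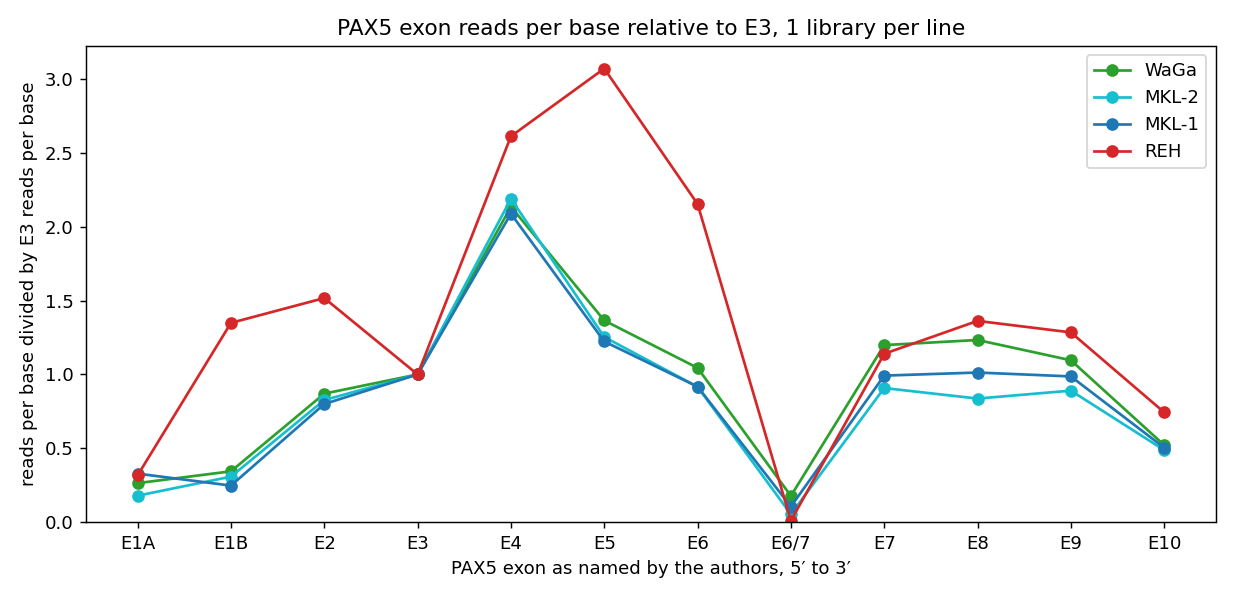
PAX5 reads per base of each exon divided by those of E3 in the same line (vertical axis, 0 at the bottom) for the 12 exons in 5′ to 3′ order (horizontal axis), with 1 library per line. WaGa, MKL-2 and MKL-1 run close to each other at most exons, and REH lies furthest above them at E1B, E2, E5 and E6, with its ratios raised by a lower share of E3; MCC13 is not drawn because 1 of its exons was above 0.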

How the data were processed

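Total RNA of 5 cell lines was enriched for mRNA with oligo-dT and sequenced from directional libraries, 1 per line, per the labels' protocols. The submitters' processing notes name, without role or order, StringTie 1.3.5, STAR 2.4.5b, SAMtools 0.1.19 and bcl2fastq 2.20, and the builds GRCh37 and hg19. The deposited expression table gives the authors' TPM for 57905 genes. TPM keeps no depth, and a few abundant genes move all others. A 0 can be a failed estimate and is described as listed at 0. The deposited PAX5 table holds a signal per exon that the authors scaled by 1 factor per library, as the values themselves show. In REH, WaGa, MKL-2 and MKL-1 all 12 values were whole multiples of 1 step (largest deviation 4.6e-06, tolerance 0.0001), and division by that step gave the reads, which would be larger if the counts shared a divisor. A unit check did not accept these values as recovered counts, so the planned Fisher test was not run. Shares carry exact (Clopper-Pearson) 95% intervals from scipy 1.17.1. These intervals rest on the same read numbers and treat reads as independent. The 2 columns that matched no sample, 1 per table, were not used, and tissue samples were not analysed here.

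Tests used limma 3.58.1 (R 4.3.3) on log2(TPM + 1), for genes that reached 1 TPM in any compared line (2-sided, variance trend, Benjamini-Hochberg adjusted p under 0.05 over all genes tested). The 4 Merkel lines were compared with REH (3 residual degrees of freedom), and each Merkel line with the other 3 (2 residual degrees of freedom). A lone line is assumed to vary like the other lines. A gene that reached 1 TPM in the lone line alone could only be called as higher in that line. No line has a replicate, so p measures the spread between lines. The script was tested on simulated data. Differences on this scale understate changes of low genes.

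The members and lists (7 lists beside the members and 8 marker lists, 135 symbols, all matched) were chosen with earlier results of these data known. Of each list the text names passing genes, at most 4 per comparison with the largest difference, and the family relatives and likeness neighbours (8 for PAX5, 5 for EBF1). ID3, CD79B, BLK, TNFRSF13C, IRF8, XBP1, PRDM1, JAK1, STAT5B, CXCR4 and IRF4 are named outside this rule, a choice made with their values seen. One gene of the lists that passed is counted but not reported here by name. The likeness ranking passed over clone names, immunoglobulin segments, Y-linked and unannotated genes. Promoters are from RefSeq (GRCh38.p14) and exon sequences from GENCODE 29 (GRCh38); 11 of the 12 exon lengths matched 1 annotated PAX5 exon each, and E1B matched none. Alternatives were a pseudocount of 0.1, no filter, a mean of 5 TPM, quantile normalization, no variance trend and leaving out each Merkel line.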

Additional observations from a re-analysis of the deposited data

Results flagged for a closer look

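Over the 4 Merkel lines the levels of the 10 members were examined for a line far from the other 3 on the log2(TPM + 1) scale. The criterion picked out 2 members. Its chance rate of about 1 in 20 groups is for normally distributed values and does not hold where lines are tied at 0. EBF1 stood at 0.0126 TPM in MCC13, far below 55.5, 52.7 and 64.6 TPM in WaGa, MKL-2 and MKL-1. IKZF1 stood at 0.0102 TPM in MCC13 and was listed at 0 in WaGa, MKL-2 and MKL-1, so the gap lies within values near 0. With those 3 lines tied at 0, any value above 0 in MCC13 would have been picked. PAX5, at 0.0228 TPM in MCC13, did not pass this criterion, with a gap of 0.810 of the range between the lowest and the highest line.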

How the results depend on the processing

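No paired analysis was possible because each line has 1 library, the groups share no pairing, and replicate numbers only follow the order of the samples. For the 4 Merkel lines against REH, 1166 genes were called; the count was 3694 without a filter, 288 with a mean of 5 TPM or more, and 0 to 2828 when 1 line was left out, with 0 called without WaGa, MKL-2 or MKL-1 and 2828 without MCC13. Members called there ranged from 0 to 5 in the fits that left out a line. For MCC13 against the other 3, 1852 genes were called, 3312 without a filter, 1167 with a mean of 5 TPM or more, and 0, with 0 members, when any other line was left out, which leaves 1 residual degree of freedom. MKL-2 against the other 3 gave 604 genes without a filter. With a line left out, all named calls among the listed genes were lost too, except in fits without MCC13. TCF3 passed against REH without a filter (adjusted p = 0.0479, range over the alternatives 0.0479 to 0.190), and TCF4 passed in MCC13 with a mean of 5 TPM (adjusted p = 0.0439, range 0.0439 to 0.207). Some differences that did not pass changed sign. Over the fits that leave out 1 line, TCF4 against REH ranged from -0.54 to 0.76, the highest value without MCC13. For MKL-2 against the other Merkel lines, these ranges were -0.24 to 0.0014 for TCF3 (highest without WaGa), -0.055 to 1.37 for FOXO1 (lowest without WaGa), -0.18 to 2.83 for EBF1 and -0.53 to 0.79 for BACH2 (both lowest without MCC13). For WaGa they were -1.09 to 2.16 for PAX5, -0.072 to 2.94 for EBF1 and -0.99 to 0.95 for TCF4, each lowest without MCC13. Quantile normalization moved the median over all genes to 0.07, against 0.18 in the comparison with REH, and to -0.15, against -0.30 in that of MCC13, and changed no direction of a member. Without E10, E1B held 24.2% of PAX5 reads in WaGa, 24.5% in MKL-2, 20.2% in MKL-1 and 46.1% in REH. In the same order E6/7 held 0.620%, 0.213%, 0.429% and 0.0178%. REH kept the highest share for E1B and the lowest for E6/7. At E6 the share of REH then lay within the range of WaGa, MKL-2 and MKL-1, and at E2 it lay below that range. The rank of EBF1 by likeness to PAX5 was 32 over the 4 Merkel lines only. The causes of these changes were not tested. The depth behind TPM values is unknown, and E6/7 rests on 5 to 54 reads.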
